A study of Mus musculus with 6 samples.

Results

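Histone genes fall into a clustered class and a replacement class, and both were followed in the hippocampus of mice in which the RNA-binding protein TAF15 had been raised. The genes were taken by name and biotype from the authors' deposited comparison table: protein-coding rows whose symbol begins with Hist1h to Hist4h, H2af, H3f3 or H1f. This gave 65 genes of the 30821 with at least 1 count, made up of 54 clustered genes and 11 replacement variants. Another 6 rows with such a symbol were pseudogenes or an antisense RNA and were left out. The 54 clustered genes comprised 5 genes of the linker histone H1, 12 of H2A, 16 of H2B, 9 of H3 and 12 of H4. They lay in the Hist1 cluster on chromosome 13 (47 genes), the Hist2 cluster on chromosome 3 (4 genes), the Hist3 cluster on chromosome 11 (2 genes) and at Hist4 on chromosome 6 (1 gene). The replacement variants were 2 H1 genes, 7 H2A genes and 2 H3 genes on several chromosomes.

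The animals were male C57BL/6J mice whose CA1 region had been injected on both sides, when 8 weeks old, with an adeno-associated virus (AAV); every library is labelled 31 days. In the TAF15 OE group (3 mice) the virus was AAV-CaMKIIα-TAF15, in which the CaMKIIα promoter restricts expression largely to excitatory neurons; in the Control group (3 mice) it was a control AAV whose promoter and insert the labels do not give. Each library was made from the whole hippocampus of 1 mouse, so injected and uninjected cells of all types were read together, and the p-values below measure the spread between mice. TAF15 binds RNA and associates with the general transcription factor TFIID, and the study asked about memory and the transcription of Npas4.

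Nucleosomes hold DNA around a core of H2A, H2B, H3 and H4, and H1 binds the linker DNA between them. Clustered histone genes are transcribed mainly during DNA replication, and their messenger RNAs end in a conserved stem-loop in place of a poly(A) tail. Replacement variants are mostly polyadenylated, are made throughout the cell cycle and supply neurons, which no longer divide. Several clustered genes are also known to give polyadenylated transcripts in differentiated cells, by reading past the stem-loop to a downstream poly(A) site.

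Libraries prepared through a poly(A) tail would see only the second kind of clustered transcript, so the annotated 3' ends come first. Whether the TruSeq kit was used with poly(A) selection is not stated in the labels. The stem-loop was read from the transcripts as the most frequent 16-base inverted repeat after the stop codon of clustered genes. It was searched for in annotated transcripts (GENCODE M21), with up to 2 mismatches. A match was found in 34 of the 54 clustered genes and 0 of the 11 replacement variants. Among other coding genes with enough annotated bases after the stop codon, a match occurred in 26 of 21069 (0.123%). Some clustered models, such as Hist1h1b and Hist1h2ai, have 0 bases there, so no match was possible. The H4 genes with a match were at the limit of 2 mismatches. A gene without a match may therefore still carry a stem-loop. The stem-loops of 4 clustered genes that rose in TAF15 OE and of both Hist3 genes, which did not pass the test, are given below in mRNA sense (DNA letters), with the stem-loop in capitals and up to 5 bases on either side.
Hist1h1c: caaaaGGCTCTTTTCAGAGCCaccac
Hist1h1d: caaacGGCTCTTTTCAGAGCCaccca
Hist1h3d: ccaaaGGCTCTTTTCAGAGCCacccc
Hist1h2bg: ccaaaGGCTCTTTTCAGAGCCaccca
Hist3h2a: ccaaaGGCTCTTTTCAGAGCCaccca
Hist3h2ba: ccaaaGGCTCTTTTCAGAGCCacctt
These 6 stem-loops carry the same 16 letters. The annotated transcript goes on past the stem-loop for 840 bases in Hist1h1c, 4884 in Hist1h1d, 752 in Hist1h3d, 155 in Hist1h2bg, 1643 in Hist3h2a and 169 in Hist3h2ba. A stem-loop or a long annotated 3' part was thus present both in genes that rose and in genes that did not. No stem-loop was found in the annotated transcripts of Hist1h2bc, which has 742 bases after the stop codon, or of Hist1h4k, whose model ends at the stop codon.

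The promoters of 60 members were matched to RefSeq by symbol and position (61 windows, 51 clustered and 10 replacement). Each window holds 250 bases before and 50 bases after a start given for the gene in GRCm38.p6. That start need not be the outer end of the gene: the H3f3b window lies inside the gene (116021912 to 116027962). Hist1h2be has more than 1 window. The search was for the TATA box TATAAA, the CCAAT box CCAAT, the octamer ATGCAAAT bound by Oct factors, and the H1 box AAACACA, all on both strands. A match counted wherever it lay in the window, so its distance from the start was not used. Windows of some neighbouring genes overlap, as those of Hist1h2ae and Hist1h2bg do. The same match can then count for both genes, and the shares below do not come from independent windows. Windows are shown for 3 clustered genes that rose, for H3f3b, which was the replacement gene that rose, and for H1f0, a replacement gene with little difference. They lie at chr13:23738557-23738856 on the plus strand (Hist1h1c), chr13:23571150-23571449 on the plus strand (Hist1h2bg), chr13:21750504-21750803 on the minus strand (Hist1h4k), chr11:116024455-116024754 on the minus strand (H3f3b) and chr15:79027962-79028261 on the plus strand (H1f0). Capitals mark matches to the 4 motifs on either strand.
Hist1h1c: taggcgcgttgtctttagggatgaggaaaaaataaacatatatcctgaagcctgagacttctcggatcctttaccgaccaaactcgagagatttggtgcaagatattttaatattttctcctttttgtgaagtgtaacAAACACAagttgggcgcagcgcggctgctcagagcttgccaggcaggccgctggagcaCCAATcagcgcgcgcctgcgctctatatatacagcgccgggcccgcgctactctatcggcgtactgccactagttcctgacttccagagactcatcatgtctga
Hist1h2bg: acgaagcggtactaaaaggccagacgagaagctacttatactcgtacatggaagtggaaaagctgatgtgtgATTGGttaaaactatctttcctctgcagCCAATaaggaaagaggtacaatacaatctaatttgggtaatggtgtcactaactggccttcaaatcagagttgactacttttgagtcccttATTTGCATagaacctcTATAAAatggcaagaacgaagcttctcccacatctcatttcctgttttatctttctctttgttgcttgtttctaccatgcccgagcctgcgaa
Hist1h4k: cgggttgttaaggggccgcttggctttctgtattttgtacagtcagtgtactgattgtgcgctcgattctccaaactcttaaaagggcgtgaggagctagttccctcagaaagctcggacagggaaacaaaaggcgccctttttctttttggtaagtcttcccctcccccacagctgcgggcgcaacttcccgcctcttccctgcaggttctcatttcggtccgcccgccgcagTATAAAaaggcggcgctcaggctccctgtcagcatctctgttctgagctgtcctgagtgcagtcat
H3f3b: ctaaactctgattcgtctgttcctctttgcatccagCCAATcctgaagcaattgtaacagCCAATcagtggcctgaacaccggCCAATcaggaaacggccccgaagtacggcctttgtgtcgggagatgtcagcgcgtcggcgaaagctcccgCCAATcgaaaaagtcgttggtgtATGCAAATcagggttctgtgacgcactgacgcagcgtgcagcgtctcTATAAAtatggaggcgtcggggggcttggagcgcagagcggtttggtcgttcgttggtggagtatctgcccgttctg
H1f0: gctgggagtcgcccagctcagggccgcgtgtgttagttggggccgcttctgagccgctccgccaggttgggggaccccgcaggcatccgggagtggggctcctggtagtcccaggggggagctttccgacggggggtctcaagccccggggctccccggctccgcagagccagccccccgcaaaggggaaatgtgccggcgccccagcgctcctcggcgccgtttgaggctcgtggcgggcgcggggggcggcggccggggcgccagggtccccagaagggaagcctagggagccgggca
The Hist1h1c window holds the H1 box and a CCAAT box, the Hist1h2bg window the TATA box, the octamer and CCAAT boxes, and the Hist1h4k window a TATA box, while the H1f0 window holds none of the 4 motifs. A TATA box stood in 60.8% of the clustered windows, in 10% of the replacement windows and in 13.6% of all 32851 windows in the table. The CCAAT box stood in 84.3% of the clustered, 70% of the replacement and 37.4% of all windows. Every clustered H1, H2A, H2B and H3 window held a CCAAT box, against 27.3% of the H4 windows. The octamer was found in 50% of the H2A and 33.3% of the H2B windows, against 1.74% of all windows, and the H1 box in 80% of the clustered H1 windows, against 7.18% of all. H3f3b was the 1 replacement gene whose window held a TATA box, and its window also held the octamer and CCAAT boxes.

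The libraries held between 14965464 and 16067000 counts. Taf15, the targeted gene, had 908, 958 and 795 counts in Control against 3897, 3661 and 4477 in TAF15 OE (log2 change 2.09, SE 0.09, adjusted p = 4.97e-07), as the labels have it. Log2 changes here and below are of TAF15 OE over Control. Control 1 and TAF15 OE 1 stood apart from the other libraries on the second principal component (21.7% of the variance). The choroid plexus transcript Ttr was at 89.3 and 1356 CPM in these 2 libraries, against 3839 to 4477 in the other 4. CPM is the read count scaled to the library total, after correction by the TMM method. Values per library are given below in the order 1, 2 and 3. The invariant chain gene Cd74, of antigen-presenting cells, was at 562 CPM in TAF15 OE 1, against 59.2 and 118 CPM in TAF15 OE 2 and 3 and 14.1 to 16.6 CPM in Control.

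Clustered histone transcripts were more abundant in TAF15 OE, while replacement transcripts stood close to the Control level. Summed over the 54 clustered genes, the level was 137, 123 and 127 CPM in Control against 296, 221 and 174 CPM in TAF15 OE. All 3 TAF15 OE libraries lay above all 3 Control libraries, with TAF15 OE 1 the highest, and the means were 129 ± 6.91 and 230 ± 61.2 CPM (SD, n = 3 each), a ratio of 1.78. The 11 replacement variants summed to 599, 595 and 547 CPM in Control against 631, 623 and 581 CPM in TAF15 OE. Those groups overlapped, and the ratio of their means was 1.05. Per length (FPKM, counts scaled by gene length and library total), the clustered genes stood at 0.480, 0.441 and 0.508 of the replacement sum in Control 1, 2 and 3, and at 1.03, 0.780 and 0.652 in TAF15 OE. Some of these lengths differ from the annotated transcripts, as for H2afy (6809 bases, against 2046 in its longest transcript). Levels compared between genes per length, here and below, depend on them. The mean log2 ratio of clustered to replacement CPM was -2.17 ± 0.09 in Control and -1.44 ± 0.33 in TAF15 OE (SD, n = 3 each), a difference of 0.73. It was 0.57 without Control 1 and TAF15 OE 1, and 0.44 without Hist1h1c. In bulk tissue, more RNA per cell and more cells of a type that expresses these genes cannot be told apart.

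**Figure D1:**
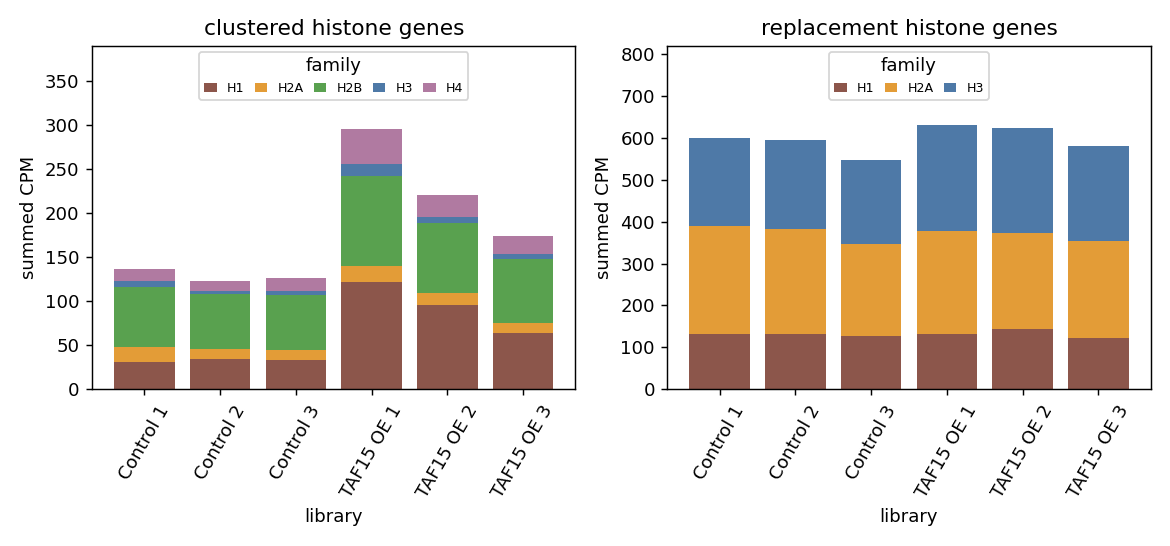
Summed CPM of the clustered (left) and replacement (right) histone genes in each of the 6 libraries, stacked by histone family. The left bars run from 123 to 137 CPM in Control and from 174 to 296 CPM in TAF15 OE; the right bars run from 547 to 599 and from 581 to 631 CPM.

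Split by family, the clustered H1 genes had the largest ratio of summed CPM between the groups and the H2A genes the smallest; on summed FPKM the H2B genes had the smallest (1.32, against 1.37 for H2A). Clustered H1 summed to 31.2, 33.8 and 33.3 CPM in Control against 122, 95.5 and 64.2 CPM in TAF15 OE. The ratio of means was 2.86, with Hist1h1c making up 29.3 of 32.8 CPM in Control and 85.3 of 93.7 in TAF15 OE. Clustered H4 summed to 13.4, 11.7 and 15.6 CPM in Control against 39.6, 24.9 and 20.0 CPM in TAF15 OE, a ratio of 2.08. In both families every TAF15 OE library lay above every Control library. For H2B the ratio was 1.32, also without overlap (62.1 to 68.9 against 72.4 to 102 CPM). For H3 it was 1.81, with overlap (3.78 to 6.86 against 6.13 to 13.2 CPM). For H2A it was 1.10, also with overlap (11.7 to 16.4 against 11.5 to 18.8 CPM). On group means, Hist3h2a made up 11.5 of the 13.3 CPM of clustered H2A in Control and 10.7 of 14.7 in TAF15 OE. Without TAF15 OE 1 the ratios were 2.44 for H1, 1.66 for H4, 1.18 for H2B, 1.34 for H3 and 0.95 for H2A, the last below 1 on CPM but 1.13 on FPKM. By position, the Hist1 cluster summed to 88.4, 85.6 and 93.4 CPM in Control against 246, 181 and 136 CPM in TAF15 OE. Without Hist1h1c, the Hist1 ratio of means was 1.71 (2.11 with it), and 1.42 without TAF15 OE 1 as well. Hist2 ranged from 13.3 to 19.4 CPM in Control and from 16.8 to 24.3 CPM in TAF15 OE, and Hist3 from 20.3 to 28.8 and from 18.7 to 24.9 CPM, so that the groups overlapped in both. The log2 ratio of Hist1 to the sum of Hist2 and Hist3 was 1.18 ± 0.30 in Control and 2.13 ± 0.23 in TAF15 OE (SD, n = 3 each), and every TAF15 OE library was above every Control library.

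Of the members, 29 passed the filter on low counts and were tested with edgeR, 19 clustered and 10 replacement. Among the clustered genes 6 rose and none fell at an adjusted p below 0.05 (11 had an unadjusted p below 0.05), beside 15.3% of all 16758 tested genes called in either direction, 9.32% higher and 5.95% lower. Of these 19 genes, 15 would have passed the filter on the Control libraries alone, 3 passed through TAF15 OE and 1 through libraries of both groups, so the count describes the genes that could be tested and not the class. The 6 calls became 3 without Control 2 and 3 without TAF15 OE 1, 4 without Control 1 and TAF15 OE 1 together, and 12 with no filter. Over all 54 clustered genes, filter or not, 45 had a higher mean CPM in TAF15 OE and 9 a lower one, beside 55.5% higher among all genes with a count. The 35 clustered genes below the filter, with 1 to 61 counts each over the 6 libraries, together had 65, 40 and 44 counts in Control against 185, 92 and 94 in TAF15 OE. Of these 35, 28 had a higher mean CPM in TAF15 OE. All 3 TAF15 OE libraries lay above all 3 Control libraries in 8 of the 19 tested clustered genes, beside 19.1% of all tested genes, and below them in none, beside 15.5%. These 8 genes include the 3 that passed the filter through TAF15 OE.

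**Figure D2:**
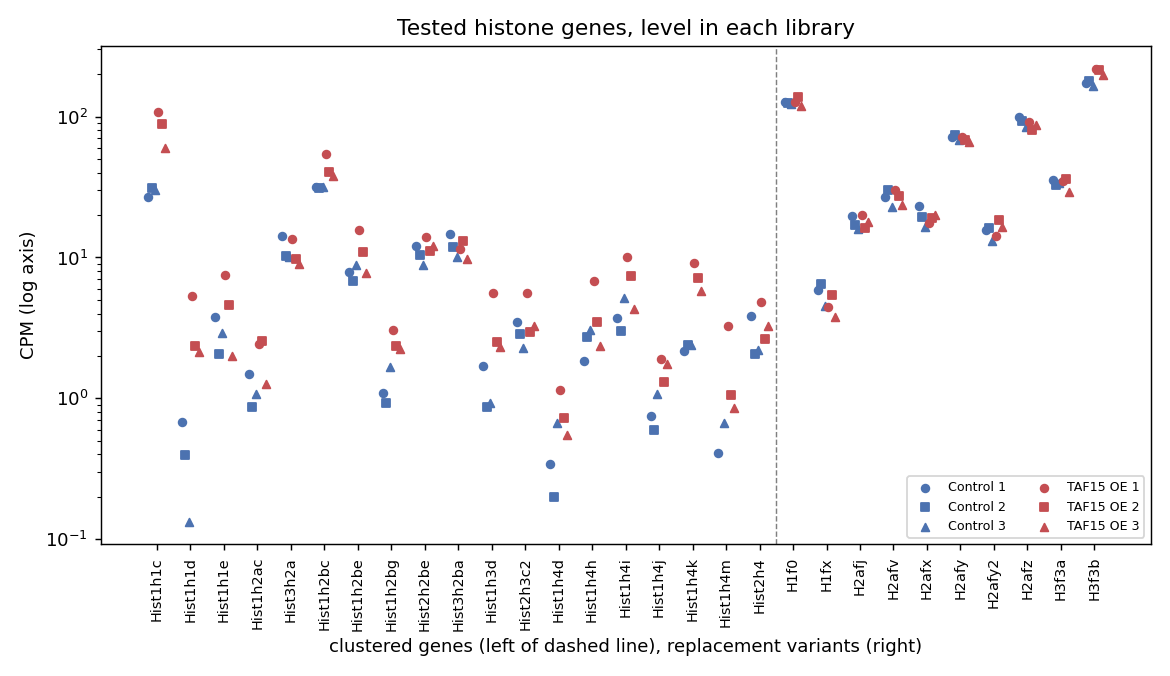
CPM on a log axis of the 29 tested histone genes in each library (blue Control, red TAF15 OE; circle, square and triangle for library 1, 2 and 3). For Hist1h1c the TAF15 OE libraries stand at 59.8 to 108 CPM and Control at 26.7 to 31.2 CPM, and for H1f0 both groups stand near 120 to 138 CPM; a value of 0 (Hist1h4m, Control 2) is not drawn.

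Hist1h1c (ENSMUSG00000036181, chromosome 13, 23738808 to 23740367, plus strand) encodes the linker histone H1.2 and was the most abundant clustered gene per length, with a mean of 36.9 FPKM over the 6 libraries. It had 393, 470 and 453 counts in Control against 1687, 1343 and 985 in TAF15 OE. The mean was 29.3 ± 2.35 CPM in Control against 85.3 ± 24.1 CPM in TAF15 OE (SD, n = 3 each). It rose by 1.54 on the log2 scale, with an SE of 0.22 and an adjusted p of 0.00805. Even the lowest TAF15 OE library lay above the highest Control library. With each library left out in turn the log2 fold change ran from 1.31 to 1.73 and the call held. Its promoter carries the H1 box shown above. Hist1h1c made up 19.5%, 25.3% and 23.8% of all clustered counts in Control against 36.5%, 40.0% and 34.3% in TAF15 OE.

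Hist1h1d (ENSMUSG00000052565, chromosome 13, 23553262 to 23560686, plus strand), which encodes H1.3, had a far lower level. It had 10, 6 and 2 counts in Control against 84, 36 and 35 in TAF15 OE (log2 change 3.00, SE 0.54, adjusted p = 0.00627). The groups did not overlap and the call held with each library left out (2.43 to 3.59), but the gene was among those that passed the filter through TAF15 OE. Hist1h1e, which encodes H1.4, was looked up after its values were seen. It had 56, 31 and 44 counts in Control against 118, 70 and 33 in TAF15 OE (log2 change 0.68, SE 0.46, adjusted p = 0.379). The groups overlapped, and in CPM the lowest TAF15 OE library lay below every Control library. Without TAF15 OE 1 the log2 change of Hist1h1e was 0.14.

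The replacement linker histone H1f0, which encodes H1.0 and accumulates in cells that have left the cell cycle, had 1873, 1891 and 1835 counts in Control against 1983, 2096 and 1970 in TAF15 OE. In CPM the groups overlapped (125 ± 2.50 against 128 ± 9.19, SD, n = 3 each), for a log2 change of 0.03 (SE 0.07, adjusted p = 0.797). H1fx, which encodes H1.10, had 86, 98 and 68 counts in Control against 70, 83 and 62 in TAF15 OE (log2 change -0.30, SE 0.22, adjusted p = 0.394). Of the summed FPKM of the 7 linker histone genes, Hist1h1c therefore made up 21.5%, 24.5% and 24.8% in Control against 51.6%, 45.5% and 40.2% in TAF15 OE. The share of H1f0 was 69.9%, 67.3% and 68.4% in Control against 41.4%, 48.4% and 54.8% in TAF15 OE. The log2 ratio of Hist1h1c to H1f0 differed by 1.47 between the groups, with every TAF15 OE library above every Control library. An exact two-sided permutation test gave p = 0.1, the smallest that 3 against 3 allows, and 0.1 after adjustment over the 2 ratios tested.

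**Figure D3:**
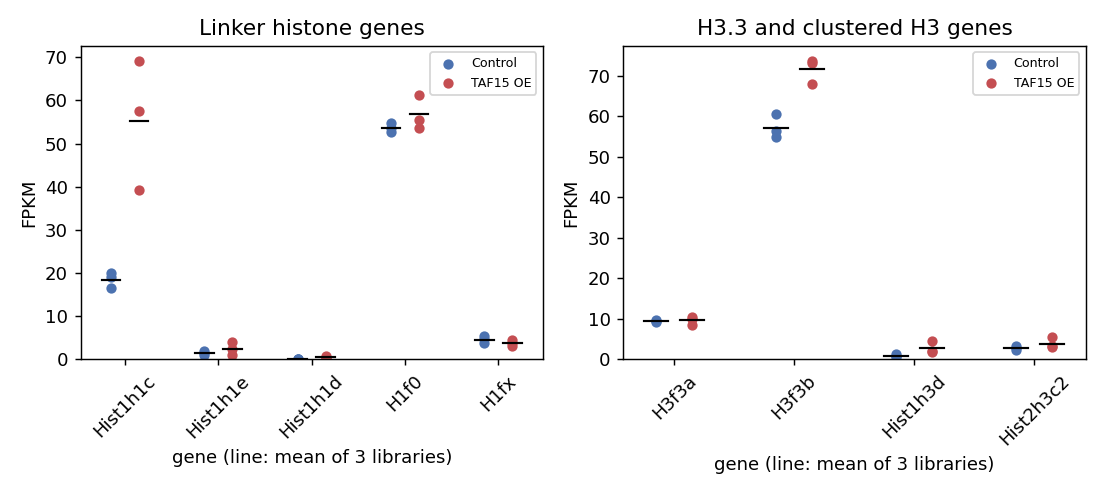
FPKM of linker histone genes (left) and of H3.3 and clustered H3 genes (right) in each library (blue Control, red TAF15 OE), with a line at the mean of 3 libraries. Hist1h1c has a mean of 18.5 FPKM in Control and 55.3 in TAF15 OE, while H1f0 has 53.7 and 56.8.

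Among the core histones, Hist1h4k (ENSMUSG00000064288, chromosome 13, 21750194 to 21750505, minus strand), 1 of the many genes for the same H4 protein, rose. It had 32, 36 and 36 counts in Control against 142, 109 and 95 in TAF15 OE. All TAF15 OE libraries were above all Control libraries, the log2 fold change was 1.66 (SE 0.22, adjusted p = 0.00127) and the call held with each library left out (1.45 to 1.80). Of the 50-base stretches of its coding sequence, 72.3% occur in another annotated gene. For the other called clustered genes this share was 97.6% (Hist1h2bc), 86% (Hist1h2bg), 82.5% (Hist1h3d), 26.5% (Hist1h1d) and 22% (Hist1h1c). It was 100% for Hist3h2a and Hist2h3c2 and 38% for Hist3h2ba. Among the 19 tested clustered genes the median share was 72.3% of the coding sequence and 24.8% of the whole transcript. The labels do not say how reads that match several genes were counted, so for near-identical copies it is uncertain which copy the counts come from. Hist1h4i had 55, 45 and 78 counts in Control against 159, 113 and 71 in TAF15 OE (log2 change 0.87, adjusted p = 0.106), and Hist1h4h 27, 41 and 46 against 106, 53 and 39 (0.72, adjusted p = 0.244). Without TAF15 OE 1 these changes were 0.54 and 0.18, and that of Hist1h4h was -0.01 without both Control 1 and TAF15 OE 1. Neither passed the test and the groups overlapped in both, TAF15 OE 3 being within Control. Hist1h4j and Hist1h4m, chosen after their values were seen, did not overlap between the groups and did not pass the test, with log2 fold changes of 1.04 (adjusted p = 0.0708) and 2.24 (adjusted p = 0.126), or 0.91 and 1.36 without TAF15 OE 1. Both had passed the filter through TAF15 OE, which favours positive values. Of all tested genes, 19.1% lay higher in TAF15 OE without overlap. All 50-base stretches of the Hist1h4m coding sequence occur in another gene.

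Hist1h3d, 1 of the clustered H3 genes, had 25, 13 and 14 counts in Control against 88, 38 and 38 in TAF15 OE and rose by 1.57 in log2 units (SE 0.42, adjusted p = 0.0301). The groups did not overlap, and TAF15 OE 1 stood far above the other libraries. It was no longer called without Control 2 (adjusted p = 0.122), without Control 3 (0.109) or without TAF15 OE 1 (log2 change 1.02, adjusted p = 0.0852), with limma-voom (0.0501) and on both FPKM scales (0.0736 and 0.0540). Hist2h3c2, a clustered H3 gene on chromosome 3, had 51, 43 and 34 counts in Control against 87, 45 and 54 in TAF15 OE, with overlapping CPM (log2 change 0.46, SE 0.29, adjusted p = 0.330). Without TAF15 OE 1 it was 0.10.

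Of the H2B genes, Hist1h2bc stood per length at 26.7 ± 0.42 FPKM in Control (SD, n = 3), above Hist1h1c with 18.5 ± 1.81. It had 464, 470 and 475 counts in Control against 853, 614 and 627 in TAF15 OE (log2 change 0.49, SE 0.13, adjusted p = 0.0250). The Control values were tightly grouped and all TAF15 OE libraries lay above them. The call was lost without Control 1, 2 or 3 or TAF15 OE 1 or 2 (adjusted p between 0.0542 and 0.0936), and the log2 fold change was 0.29 without TAF15 OE 1. Hist1h2bg had 16, 14 and 25 counts in Control against 48, 36 and 37 in TAF15 OE, without overlap (log2 change 1.05, SE 0.32, adjusted p = 0.0443). Its call was lost without any 1 library other than Control 3 (adjusted p between 0.0724 and 0.142) and with DESeq2 (0.0917). Over all alternatives run, its adjusted p reached 0.189. Hist2h2be had 177, 158 and 132 counts in Control against 218, 169 and 199 in TAF15 OE, with overlap in CPM (log2 change 0.25, SE 0.15, adjusted p = 0.321). Without TAF15 OE 1 it was 0.13.

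Both Hist3 genes overlapped between the groups. Hist3h2a, an H2A gene, had 208, 155 and 152 counts in Control against 211, 149 and 147 in TAF15 OE (log2 change -0.10, SE 0.19, adjusted p = 0.777). Hist3h2ba, an H2B gene, had 216, 178 and 152 counts in Control against 179, 200 and 161 in TAF15 OE (log2 change -0.09, SE 0.17, adjusted p = 0.769). These values were close to 0, and the sign of both turned without Control 1 or TAF15 OE 3. Of the 14 tested Hist1 genes, 4 did not pass the filter on Control alone, which favours positive values among them. The other 10, set apart after the values were seen, all had a positive log2 change, with 5 called and a median of 0.87. The 3 tested Hist2 genes lay between 0.25 and 0.46 with none called, and between 0.10 and 0.13 without TAF15 OE 1. The median over all tested genes was 0.03, with 53.7% positive.

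**Figure D4:**
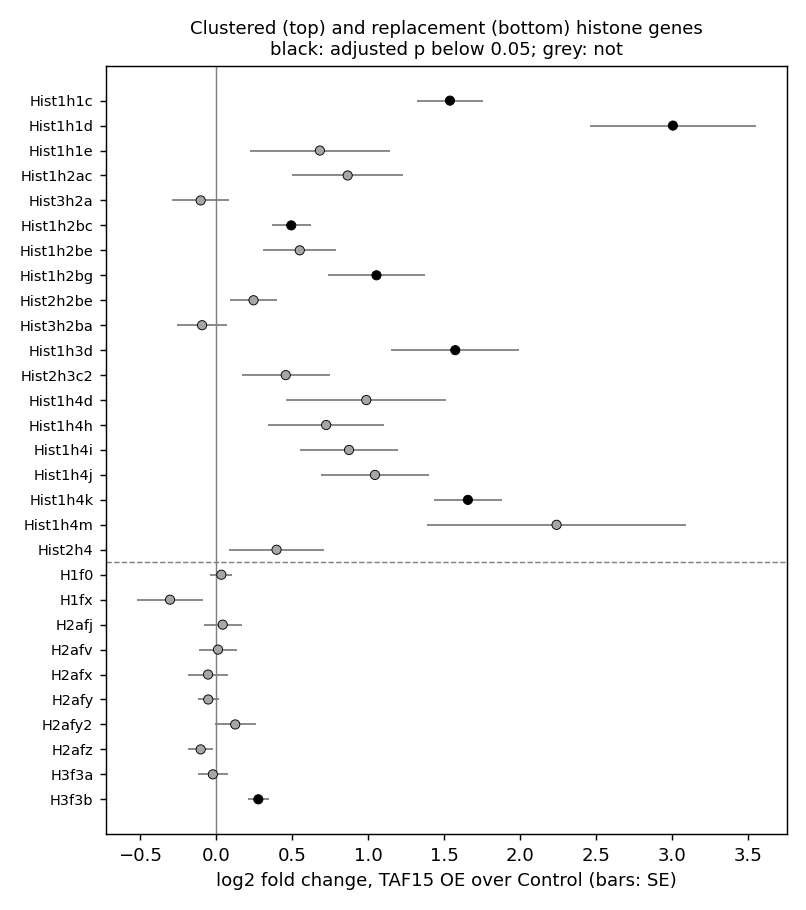
Log2 fold change of TAF15 OE over Control for the 29 tested histone genes, with bars of 1 SE; black points had an adjusted p below 0.05 in edgeR. The clustered genes (above the dashed line) run from -0.10 to 3.00 and the replacement genes (below) from -0.30 to 0.28.

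Among the replacement variants, H3f3b (ENSMUSG00000016559, chromosome 11, 116021912 to 116027962, minus strand) was the 1 of 10 tested genes that passed the test, beside 15.3% of all tested genes called in either direction and 9.32% higher, so the replacement share is near the background. H3f3a and H3f3b encode the same H3.3 protein, which marks active genes and replaces canonical H3 outside replication. H3f3b had 2564, 2719 and 2483 counts in Control against 3429, 3255 and 3251 in TAF15 OE, and rose by 0.28 in log2 units (SE 0.07, adjusted p = 0.0210). The groups did not overlap (173 ± 7.48 against 210 ± 11.4 CPM, SD, n = 3 each). The call was lost without Control 1, Control 3, TAF15 OE 1 or TAF15 OE 2 (adjusted p between 0.0602 and 0.118), leaving none among the replacement variants, and without both Control 1 and TAF15 OE 1 (0.101). H3f3a had 522, 490 and 503 counts in Control against 542, 548 and 484 in TAF15 OE (log2 change -0.02, SE 0.10, adjusted p = 0.917); the sign of this value near 0 turned with scaling to total counts. The log2 ratio of H3f3b to H3f3a differed by 0.30 between the groups, every TAF15 OE library being above every Control library (exact two-sided permutation p = 0.1, the smallest possible). H3f3a overlaps the antisense gene H3f3aos, and the labels do not say whether the counting used strand. In all, 7 of the 10 tested replacement genes and 2 of the 19 tested clustered genes overlap a gene on the opposite strand. Some overlap a gene on the same strand, such as Hist3h2a with Trim17, and Hist1h1e with Hist1h2be and Gm11398. How reads in such overlaps were counted is not given.

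Each of the 6 tested H2A variants overlapped between the groups. H2A.Z, which flanks promoters, comes from H2afz and H2afv. H2afz had 1459, 1413 and 1264 counts in Control against 1433, 1216 and 1430 in TAF15 OE (log2 change -0.10, SE 0.08, adjusted p = 0.459), and H2afv 396, 455 and 344 against 471, 413 and 387 (0.01, SE 0.13, adjusted p = 0.960). MacroH2A, a large variant found in silent chromatin, comes from H2afy and H2afy2. H2afy had 1060, 1109 and 1030 counts in Control against 1125, 1044 and 1091 in TAF15 OE (-0.05, SE 0.07, adjusted p = 0.685), and H2afy2 229, 246 and 196 against 222, 280 and 271 (0.13, SE 0.14, adjusted p = 0.592). H2afx, whose protein is phosphorylated at DNA breaks, had 341, 292 and 248 counts in Control against 275, 292 and 332 in TAF15 OE (-0.05, SE 0.13, adjusted p = 0.838). H2afj had 289, 258 and 238 against 314, 248 and 294 (0.04, SE 0.12, adjusted p = 0.857). H2afb3 had 4 counts in all and was not tested. The signs of the log2 fold changes of H2afv, H2afx and H2afj turned under several alternatives.

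Annotated 3' ends differed between the clustered genes that could be tested and those that could not. After the stop codon, 16 of the 19 tested clustered genes had at least 100 annotated bases (median 799), against 11 of the 35 below the filter (median 80), and all 10 tested replacement variants (median 1013). Of the 13 tested clustered genes with a stem-loop, 11 were annotated for at least 100 bases past it, against 6 of 21 below the filter. The mean FPKM of the tested clustered genes had a median of 3.07, against 0.143 for those below the filter and 12.1 for the replacement variants. The filter acts on counts and not on counts per length, so it favours genes with a longer annotation. RNAs that lack a poly(A) tail, in a list of 17 genes, had few counts: 8 had any, none was tested, and their summed level was 1.16 to 1.33 CPM in Control and 1.27 to 1.98 CPM in TAF15 OE.

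**Figure D5:**
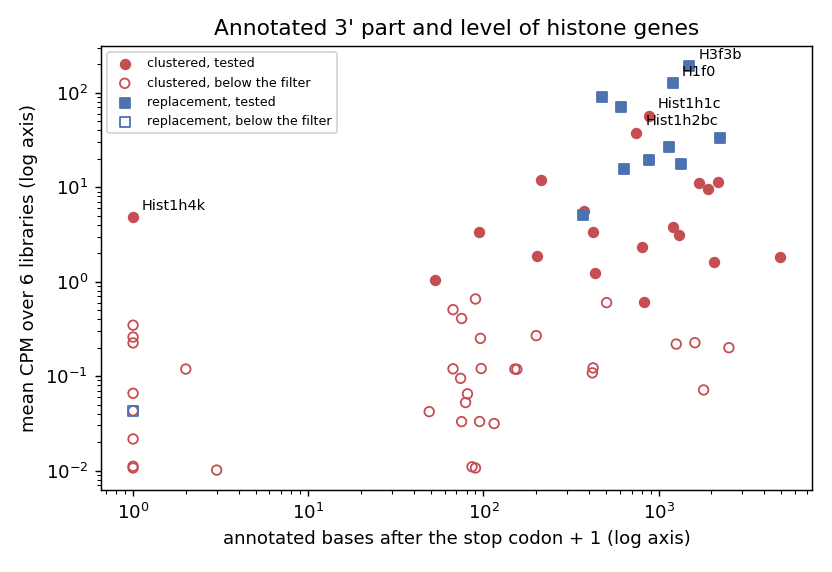
Mean CPM over 6 libraries against annotated bases after the stop codon plus 1 (both axes log) for 54 clustered (red) and 11 replacement (blue) histone genes; open symbols did not pass the filter. The tested clustered genes have a median of 799 annotated bases after the stop codon and those below the filter 80; Hist1h4k, with 0, is an exception.

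The next lists hold genes that act with histones. Counts called in these and the later lists stand beside 15.3% of all tested genes called in either direction, 9.32% higher and 5.95% lower. Of 18 tested genes for transcription and 3' processing of clustered histone RNA, none passed the test by edgeR (1 had an unadjusted p below 0.05), and their sum was 804 to 846 CPM in Control and 782 to 803 CPM in TAF15 OE, without overlap. Npat, the coactivator of clustered histone genes, had 443, 440 and 447 counts in Control against 389, 504 and 574 in TAF15 OE (log2 change 0.06, adjusted p = 0.793), and its sign turned without TAF15 OE 2 or 3. Slbp, the stem-loop binding protein gene, had 188, 217 and 217 against 223, 253 and 253 (0.15, adjusted p = 0.447). The smallest p of that list was of Lsm11, a subunit of the U7 processing particle, with 635, 583 and 638 against 593, 484 and 467 counts (-0.34, adjusted p = 0.0584). None of 4 genes for replication-coupled deposition was called, Chaf1a, of the CAF-1 complex, having the smallest p (0.39, adjusted p = 0.175). Of 8 genes for H3.3 deposition, Ubn2, a partner of the HIRA complex, rose from 950, 895 and 932 counts to 1183, 1187 and 1429 (0.37, SE 0.08, adjusted p = 0.00930). Hira itself had 151, 160 and 130 against 161, 128 and 165 (-0.04, adjusted p = 0.895), and its sign turned with scaling to total counts. None of 10 genes for H2A.Z exchange (428 to 430 against 439 to 449 CPM in sum) and none of 7 general histone chaperone genes passed the test (719 to 775 against 743 to 754 CPM), with no unadjusted p below 0.05 in either list.

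Of the replication and division genes 1 was called, beside 15.3% of all tested genes. None of 18 tested mitotic genes passed the test (1 had an unadjusted p below 0.05), and their list summed to 34.3 to 39.9 CPM in Control and 36.8 to 48.6 CPM in TAF15 OE, with TAF15 OE 1 the highest. The S phase list summed to 179, 175 and 169 CPM in Control against 182, 193 and 187 CPM in TAF15 OE, so every TAF15 OE library lay above every Control library. Mki67, the proliferation marker, had 66, 47 and 79 counts in Control against 108, 68 and 64 in TAF15 OE (log2 change 0.25, SE 0.27, adjusted p = 0.598), the sign turning without TAF15 OE 1. Of 26 S phase genes 3 had an unadjusted p below 0.05 and 1 rose, Gins1, a subunit of the replicative helicase, with 6, 2 and 6 counts in Control against 18, 18 and 17 in TAF15 OE (1.82, SE 0.46, adjusted p = 0.0229). Mcm4 (0.35, adjusted p = 0.0895) and Mcm7 (0.34, adjusted p = 0.144), which encode helicase subunits, did not pass the test.

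Markers of several cell types moved with the groups, and TAF15 OE 1 was the highest library for the summed clustered genes and for the summed markers of microglia, T and NK cells, endothelium, astrocytes and neural progenitors, but not of B and plasma cells or oligodendrocytes. The TAF15 OE libraries followed the order 1, 2, 3 of the clustered sum, from high to low, in the astrocyte and progenitor sums, and in the excitatory neuron sum, but not in the microglial one. Of 14 microglial markers 13 rose, and their sum was 600 to 652 CPM in Control against 1851, 1199 and 1244 CPM in TAF15 OE. Of 7 tested T and NK cell markers 6 rose, summing to 6.32 to 6.43 CPM in Control against 31.0, 12.6 and 16.2 CPM in TAF15 OE. Of 6 tested B and plasma cell markers 3 rose (31.6 to 218 against 290 to 913 CPM). In astrocytes 5 of 6 rose (2383 to 2762 against 5545, 5193 and 5026 CPM), in oligodendrocytes 5 of 6 (4848 to 5214 against 5959 to 7746 CPM), in their precursors 1 of 4 (179 to 189 against 215 to 222 CPM) and in endothelium 3 of 8 (173 to 218 against 224 to 317 CPM). Of 6 markers of neural progenitors and neuroblasts 2 rose (103 to 115 against 161, 146 and 125 CPM). Of 10 markers of excitatory hippocampal neurons 7 fell (7721 to 9505 against 6563, 5874 and 5396 CPM), and of 6 interneuron markers 2 (663 to 727 against 575 to 680 CPM). None of 6 choroid plexus markers passed the test (336 to 6655 against 2571 to 7669 CPM), and 2 of 13 mitochondrial transcripts rose. No marker in these lists was at 0 in every library. The part of these cell types in the histone levels was not tested. Without TAF15 OE 1, the summed clustered level differed by 0.61 on the log2 scale, against 0.80 with all libraries. The microglial and astrocyte sums of TAF15 OE 2 and 3 also lay above Control. Leaving out TAF15 OE 1 therefore does not separate the cell types from the histone levels.

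The authors' deposited table was compared with these calls. Its adjusted p was below 0.05 for 6 of 21 clustered and 1 of 10 replacement genes with an adjusted p, beside 16.0% of the 17059 genes given one. Of the clustered calls 5 were shared with edgeR. Hist1h4m was called in the authors' deposited table and not by edgeR, and Hist1h2bg the other way round (adjusted p = 0.0917 in the authors' deposited table). The authors' deposited table listed for Hist1h1c a log2 fold change of 1.51 (adjusted p = 1.54e-16) and for Hist1h1d one of 3.00 (adjusted p = 1.42e-05).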

How the data were processed

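Histone genes were measured in hippocampal RNA of 6 mice, 3 Control and 3 TAF15 OE; groups and replicate numbers came from the sample titles. The members and lists were chosen with earlier results of these data known. The submitters' processing notes name HISAT2 2.1.0, TopHat2, Bowtie2 2.2.3 and CASAVA, and build GRCm38. The use of each tool, the counter, annotation release, strandedness and treatment of reads matching several genes are not given in the sources used here. One deposited file gives raw counts per gene, and another gives FPKM values made by the authors. The authors' comparison table adds a mean normalised signal, a fold change as a ratio, its log2 value, and a p-value and adjusted p-value, all made by the authors.

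Counts were tested in R 4.3.3 with edgeR 4.0.16: filterByExpr (minimum count 10, minimum total 15), TMM scaling, and a quasi-likelihood F-test with group as the only term, with Benjamini-Hochberg adjustment over 16758 genes and a threshold of 0.05. Each SE belongs to a log2 fold change. Levels are CPM relative to the scaled library total, or the deposited FPKM. Single ratios were tested with exact permutations (SciPy 1.17.1). The procedure was tested on simulated data. Alternatives were DESeq2 1.42.0, limma-voom and limma 3.58.1 on log2(FPKM + 1) and log2(FPKM + 0.1), other scalings, filters, a replicate block and each library left out. Leaving out Control 1 and TAF15 OE 1 together was added after seeing the data.

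Transcript ends came from GENCODE M21 and promoters from RefSeq (GRCm38.p6). Every replacement gene is named, and of the clustered genes those called and the 10 with the highest mean FPKM among those tested; of the pathway lists up to 4 genes with the smallest p, besides Taf15, Npat, Slbp, Hira and Mki67. Depth was 14965464 to 16067000 counts per library, so genes with a few counts have wide counting error.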

Additional observations from a re-analysis of the deposited data

How the results depend on the processing

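Among tested clustered genes, 6 were called and the count was 12 with no filter, 4 without Control 1 and TAF15 OE 1, and 3 to 8 with 1 library left out; it was 6 or 5 under the other alternatives. Hist1h1c and Hist1h4k were called under every alternative run, with adjusted p up to 0.0493 and 0.00959, and Hist1h1d (up to 0.0414) under each in which it was tested, which leaves out both FPKM scales, where its mean was under the minimum of 0.5. The median clustered log2 fold change, 0.87, was 0.57 on log2(FPKM + 1), 0.47 without Control 1 and TAF15 OE 1, and 0.54 to 1.21 with 1 library left out. The replacement call (1, H3f3b) became 0 without Control 1 and TAF15 OE 1, and 0 to 1 with 1 library left out. Without the most abundant gene of each class, the log2 difference in summed level was 0.51 for clustered genes (0.80 with it) and -0.019 for replacement genes (0.08 with it). Over all genes 2559 were called, 1551 on log2(FPKM + 1), 1630 on log2(FPKM + 0.1), and 1331 to 2501 with 1 library left out. The cause of these moves was not tested, beyond the fewer samples in fits that leave out libraries.

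Same-numbered libraries of the 2 groups had correlations of 0.126, 0.0776 and 0.0871 between their deviations from the group means, so the numbers were not taken to pair the mice, although each library correlated best with its own number, a hint from the data and not the design. With a replicate block 6 clustered genes, 1 replacement gene and 3291 genes in all were called.

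Some uncalled values changed sign, most of them near 0 but also Hist1h4h (0.72 with all libraries), Top2a (0.42) and Mki67 (0.25). With 1 library left out, log2 fold changes ran from -0.32 to 0.071 (Hist3h2a), -0.22 to 0.060 (Hist3h2ba), -0.035 to 0.073 (H1f0), -0.062 to 0.13 (H2afj), -0.099 to 0.11 (H2afv), -0.17 to 0.079 (H2afx), -0.093 to 0.054 (H3f3a), -0.046 to 0.60 (Top2a), -0.062 to 0.42 (Mki67), -0.044 to 0.17 (Npat), -0.097 to 0.050 (Nasp), -0.053 to 0.082 (Daxx) and -0.13 to 0.030 (Hira). Without Control 1 and TAF15 OE 1 together, the reversed values were 0.035 (Hist3h2ba), -0.014 (Hist1h4h), -0.095 (H2afv), 0.11 (H2afx), -0.14 (Top2a), -0.033 (Mki67), 0.021 (Nasp) and 0.031 (Ubn1). With total counts they were 0.026 (H3f3a), 0.027 (Nasp) and 0.0075 (Hira), and for H2afv -0.0080 with DESeq2's size factors, -0.016 with DESeq2 and -0.015 with no filter. On log2(FPKM + 1) and log2(FPKM + 0.1) they were 0.0040 and 0.0048 (H2afx), 0.020 and 0.021 (H3f3a), 0.016 and 0.020 (Nasp), and 0.0037 and 0.0058 (Hira). Depth limits the clustered genes below the filter, with at most 61 counts each over the 6 libraries.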

Other observations

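A further 15 protein-coding histone genes of the 2 classes in GENCODE M21 had 0 counts in every library, 13 clustered genes and the testis variants H2afb1 and H2afb2. For 5 of the 13 clustered genes (Hist1h2ag, Hist1h2ap, Hist2h2aa1, Hist2h2aa2 and Hist2h3c1) every 50-base stretch of the coding sequence occurs in another annotated gene, so a count of 0 for them does not separate a silent gene from reads given to a copy or set aside. Among the clustered genes below the filter, 10 had counts in TAF15 OE libraries and none in Control, and 1 the reverse. These 10 genes had from 1 (Hist1h2ah) to 7 counts (Hist1h2br) in all, so their absence from Control is at the counting floor. No such share was computed for other genes with so few counts. Hist1h4c and Hist1h2ad, chosen after their values were seen, had 3, 4 and 3 and 8, 3 and 3 counts in Control and 25, 12 and 9 and 25, 12 and 10 in TAF15 OE.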
